A study of Mus musculus with 9 samples.

Results

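The genes described here run the oxidation of fatty acids, the making and use of ketone bodies, and the transcriptional response to peroxisome proliferator-activated receptors (PPARs). A list of 36 genes defined the group, and a row of the deposited table belonged to it when its platform annotation gave exactly 1 gene symbol and that symbol was on the list. These criteria found 64 rows for 34 genes, out of 34945 rows with 1 symbol for 18193 genes. No row with a single symbol was found for Cyp4a10 or Acsl1, which are not analysed here.

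The 9 samples were of whole mouse colon on a mixed C57BL/6 and Balb/c background, each profiled on 1 Affymetrix mouse expression array. The mutant group had 5 samples, from Rosa26-CreERT2-Ptch1fl/fl mice, in which tamoxifen-activated Cre removes exons 8 and 9 of Ptch1, the receptor that holds Hedgehog signalling off. The wildtype group had 4 samples, from Rosa26-CreERT2-Ptch1+/+ mice, which carry the same Cre and received the same tamoxifen, 1 mg into the abdomen on each of 5 days, and colons of both groups were taken at day 12. The Cre sits at a locus active throughout the body, so the deletion was not limited to 1 cell type or to the colon. Ages are not given in the labels. Nor do they say that each sample came from its own animal, so the p-values speak for the scatter among these 9 arrays, some of which may be technical.

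In fatty acid oxidation, acyl-CoA synthetases activate a fatty acid, the carnitine shuttle carries it into the mitochondrion, and a repeating cycle of dehydrogenation, hydration, dehydrogenation and thiolysis then releases acetyl-CoA. Ketone body enzymes interconvert that acetyl-CoA and exported fuel. PPARs are nuclear receptors that bind fatty acids and switch many of these genes on, and absorptive cells of the colon are known for burning butyrate, a short fatty acid made by gut bacteria.

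The rows of this table tie a name only weakly to the strength of a difference between the groups, and not to its sign or its signal level. Among the 18 names in the group with more than 1 row, the rank of the difference in the first 2 rows had a median gap of 10.3 points on a scale of 100, against 23.2 points over all 9010 names with more than 1 row. The correlation of these ranks was 0.220 over the 18 names and 0.250 over the 9010, whereas their mean log2 signal levels had correlations of -0.214 and 0.0259. These are descriptions across genes, which are not independent replicates and share the 9 arrays. Ranks in the group lie mostly high (median 77.6 over its 64 rows), which by itself narrows the gap between 2 rows of a name. Of 13 pairs of rows that shared a name in the group and were both at an unadjusted limma p under 0.05, 7 differed between the groups in the same direction. Each gene is therefore described by how strongly the row carrying its name differed, with no direction, fold or abundance, and a call for a single name is uncertain.

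Strength was measured as the absolute moderated t of mutant against wildtype, computed by limma on log2(intensity + 16) for all 45037 rows that were not controls, with p-values adjusted by Benjamini-Hochberg over all of them. The percent rank of a row places its absolute t among the 34945 rows with 1 symbol, where 100 is the strongest difference and 50 the middle. A row passed the test at an adjusted p under 0.05. For rows that passed, each array is also given a position on a scale where the wildtype mean is 0 and the mutant mean is 1. This scale shows the scatter of the arrays and whether the groups overlap, and it carries neither direction nor size.

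PPARs bind DNA with a partner receptor at a repeat of the hexamer AGGTCA with 1 letter between the copies (AGGTCANAGGTCA, called DR1). Promoter windows from RefSeq (GRCm38.p6), which run from 250 bases before to 50 after a gene's start, were matched for 31 of the 36 genes. A window is not used here for Acaa2, Acat1, Angptl4, Cyp4a10 or Decr1. The following windows are shown because they pair the fatty acid gate Cpt1a, the dehydrogenase Acadm and the transporter Cd36, each with a row past the test, with the classic PPAR targets Fabp1 and Plin2, whose rows did not pass. They lie at chr19:3323051-3323350 (plus strand), chr3:153944594-153944893 (minus strand), chr5:17835847-17836146 (minus strand), chr6:71199629-71199928 (plus strand) and chr4:86670010-86670309 (minus strand), each written 5′ to 3′ along its gene. Capitals mark AGGTCA, on either strand (TGACCT), and the closest DR1 match where at most 2 of its 12 fixed letters differ.
Cpt1a: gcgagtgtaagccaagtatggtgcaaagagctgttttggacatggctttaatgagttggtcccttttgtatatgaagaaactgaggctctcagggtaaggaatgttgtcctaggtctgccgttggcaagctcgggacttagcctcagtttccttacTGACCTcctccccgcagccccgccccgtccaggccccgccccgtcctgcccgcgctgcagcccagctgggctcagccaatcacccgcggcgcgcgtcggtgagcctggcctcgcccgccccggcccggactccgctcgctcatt
Acadm: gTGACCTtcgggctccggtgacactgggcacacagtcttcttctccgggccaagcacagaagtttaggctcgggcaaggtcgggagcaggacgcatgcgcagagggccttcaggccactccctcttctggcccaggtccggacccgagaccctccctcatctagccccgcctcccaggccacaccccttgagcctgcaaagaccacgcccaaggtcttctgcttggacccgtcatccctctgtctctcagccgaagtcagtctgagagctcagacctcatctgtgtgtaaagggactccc
Cd36: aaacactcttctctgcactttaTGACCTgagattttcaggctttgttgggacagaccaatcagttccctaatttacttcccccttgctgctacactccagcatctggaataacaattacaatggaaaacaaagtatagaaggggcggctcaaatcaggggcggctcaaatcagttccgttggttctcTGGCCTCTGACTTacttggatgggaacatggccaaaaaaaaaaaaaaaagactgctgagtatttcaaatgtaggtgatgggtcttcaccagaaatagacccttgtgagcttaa
Fabp1: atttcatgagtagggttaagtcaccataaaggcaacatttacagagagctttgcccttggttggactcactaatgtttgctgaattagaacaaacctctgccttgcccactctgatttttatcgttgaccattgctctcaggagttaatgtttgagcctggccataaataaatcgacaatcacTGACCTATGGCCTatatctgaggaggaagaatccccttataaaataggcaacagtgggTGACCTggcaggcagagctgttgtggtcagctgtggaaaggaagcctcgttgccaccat
Plin2: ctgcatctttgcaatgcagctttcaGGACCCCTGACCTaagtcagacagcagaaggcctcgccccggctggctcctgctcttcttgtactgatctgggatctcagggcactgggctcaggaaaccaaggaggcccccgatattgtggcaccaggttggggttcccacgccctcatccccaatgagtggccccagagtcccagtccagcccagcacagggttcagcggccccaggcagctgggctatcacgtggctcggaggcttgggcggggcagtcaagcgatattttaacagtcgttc

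The Fabp1 window held the closest DR1 match of the group, with 1 of 12 fixed letters differing, starting 67 bases before the gene's start. Matches with 2 letters differing were found in the Cd36 and Plin2 windows, and in Cpt1a and Acadm only the single hexamer was found. On both strands, and counting a hexamer inside a DR1 match as well, AGGTCA was in 9 of the 35 windows of these genes (25.7%) and in 16.3% of 32851 windows of all genes. A DR1 with up to 2 letters differing was in 5 of 35 (14.3%), against 3.86% of all windows. Split by the array result and counted by gene, the hexamer was in 4 of 11 genes with a row past the test and in 4 of 19 with none. The DR1 match was in 1 of 11 and 4 of 19. Counted the same way over all 27025 genes with a window, the hexamer was in 4900 and the DR1 match in 1190. A match is a run of letters, not a bound site, and no difference between these shares was tested.

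The group differed between mutant and wildtype colons more often than rows of the table in general. Its list was chosen with earlier results of these data known, so the shares below are descriptions and not an independent test. Of its 64 rows, 16 passed the test (25.0%), against 5.19% of all rows with 1 symbol and 4.51% of all 45037 rows fitted. In whole tissue, a change in the number of cells of a type and a change in RNA per cell cannot be told apart. These 16 rows carried the names of 13 of the 34 genes (Ppara, Pparg, Bdh1, Cpt1a, Acadm, Acads, Acaa2, Eci2, Acsl3, Acsl5, Acot2, Cd36 and Angptl4), where 8.43% of all gene names had at least 1 row past the test. At an unadjusted p under 0.05 were 30 of the 64 rows (46.9%), against 21.1% of all rows with 1 symbol. The median percent rank was 77.6 over the rows and 75.2 over the genes, each gene taken as the mean of its rows, where the middle of all rows is 50. Names with more rows have more chances, so the genes were also counted by number of rows. A row passed for 5 of 16 genes with 1 row (5.14% of all such names), 3 of 8 with 2 rows (8.82%) and 5 of 10 with 3 or more (15.0%).

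**Figure D1:**
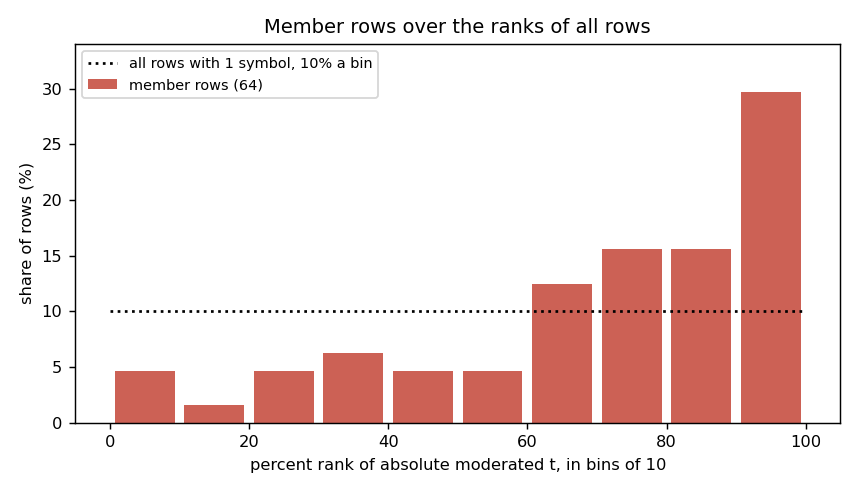
The share of the 64 rows of the group (bars, %) in each 10-point bin of the percent rank of the absolute moderated t, with the 10% that all 34945 rows with 1 symbol have by construction as the dotted line. The top bin held 19 rows (29.7%) and the bottom bin 3 (4.69%).

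In all 16 rows that passed, the 5 mutant arrays lay apart from the 4 wildtype arrays, and this held for 19 of the 64 rows (29.7%), against 9.78% of all rows with 1 symbol. The gap between the group means was 2.52 to 5.00 pooled standard deviations in the 16 rows. Because these rows were picked by their t on the same arrays, their separation and gaps largely restate that choice. Which arrays stood nearest to the other group varied from row to row. Among the mutants it was replicate 1 in 6 of the 16 rows and replicate 4 in 5, and among the wildtypes it was replicate 1 in 8 and replicate 2 in 6. Wildtype replicate 3 was nearest in none.

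**Figure D2:**
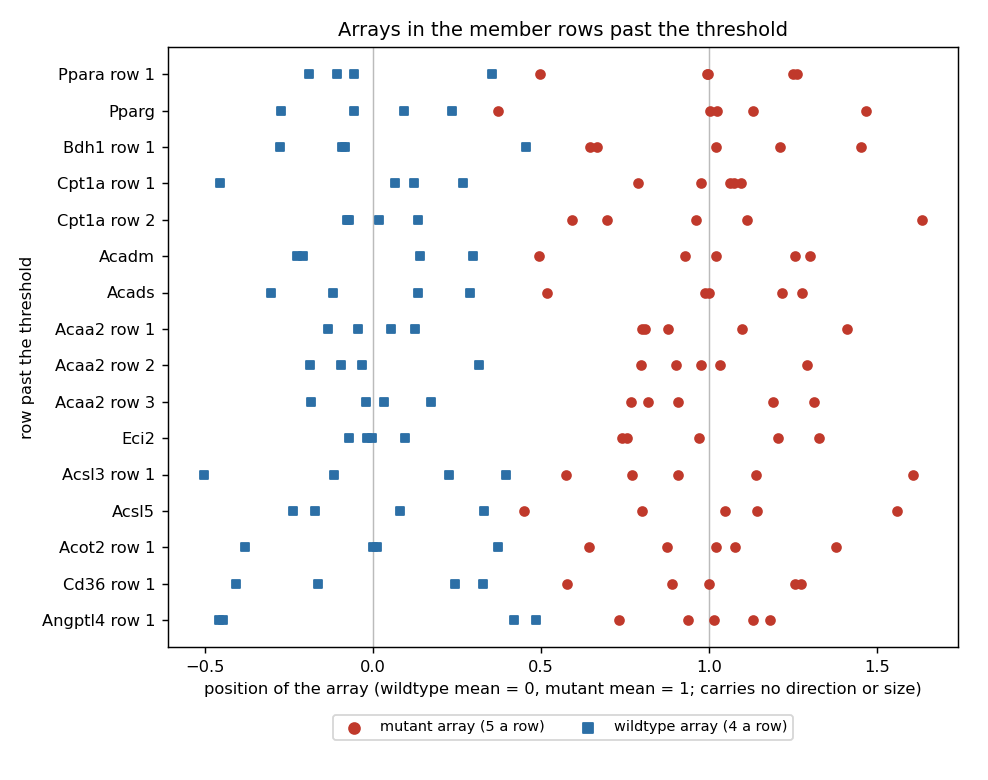
Position of each array (horizontal axis, no unit, wildtype mean at 0 and mutant mean at 1) in the 16 rows of the group that passed the test, with red circles for the 5 mutant and blue squares for the 4 wildtype arrays. The groups do not overlap in any of these rows, which were picked by their t on the same arrays. The space between the groups is widest in Acaa2 row 1 and narrowest in Acsl5, where the lowest mutant is at 0.449 and the highest wildtype at 0.330.

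Leaving out single arrays moved these counts. Without wildtype replicate 3 or wildtype replicate 4, 5 rows of the group passed (7.81%, against 0.987% and 1.02% of all rows with 1 symbol), without mutant replicate 2 or 3, 6 passed (9.38%, against 1.77% and 1.76%), and without wildtype replicate 2, 10 passed (15.6%, against 2.87%). The rows of Acaa2, Eci2 and the first row of Cpt1a passed in all 9 of these fits. Array numbers in the sample titles averaged 4.2 in mutants and 8 in wildtypes, so the number and the group were partly tied. Once array number entered the model as a covariate, 0 of the 64 rows passed in limma, against 0.0773% of all rows with 1 symbol, and the smallest adjusted p was 0.0865. In that fit 25 rows of the group were at an unadjusted p under 0.05 (39.1%, against 14.3%), among them all 16 rows above, whose percent ranks lay between 89.9 and 99.8. Those 16 rows were picked by their t on the same arrays, so their high ranks in this fit partly restate that choice. The median percent rank of the 64 rows was then 71.6.

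**Figure D3:**
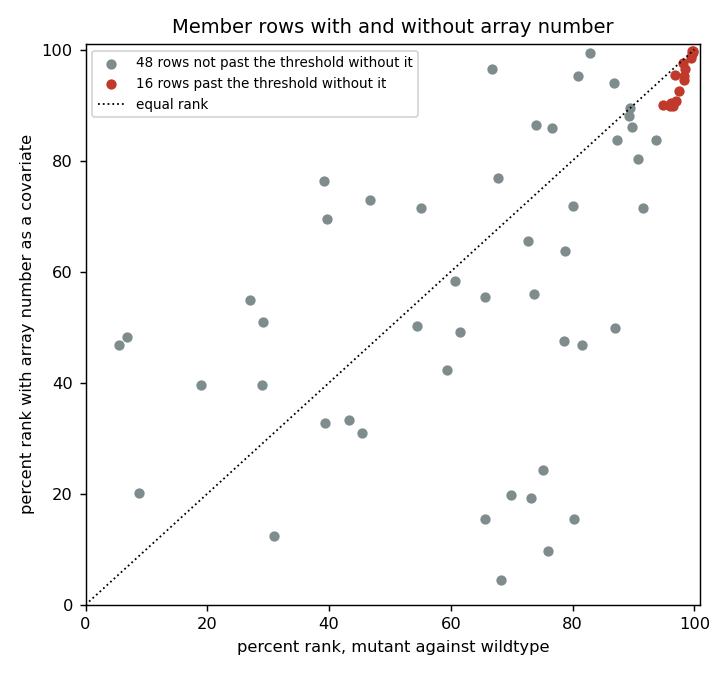
Percent rank of the absolute moderated t of each of the 64 rows without (horizontal axis) and with (vertical axis) array number as a covariate, with red points for the 16 rows that passed without it, grey points for the other 48, and equal rank as the dotted line. The red points, which were picked by their t on the same arrays, stay between 89.9 and 99.8. Grey points scatter widely, down to 4.42 for an Acat1 row at 68.2 without the covariate.

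Both PPAR genes on the list had a row past the test. Ppara encodes the receptor that drives fatty acid oxidation in fasting. In its first row (rows of a gene are numbered from the strongest) mutant replicates 1 to 5 stood at 0.994, 1.25, 1.26, 0.497 and 0.998, and wildtype replicates 1 to 4 at -0.0559, 0.353, -0.106 and -0.191. The groups stayed apart, with mutant replicate 4 and wildtype replicate 2 facing each other across the gap. This row had an absolute t of 5.51, a percent rank of 98.3 and a limma adjusted p of 0.0225, and it passed in 5 of the 9 fits that left out an array. The other rows of Ppara ranked 93.7 and 91.5 and did not pass (adjusted p 0.0614 and 0.0853), so all 3 ranked above 90.

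Pparg, the receptor best known for fat cell formation and also found in colon epithelium, had a single row at rank 97.0 (adjusted p 0.0331), whose call was kept in 2 of the 9 fits that left out an array. Mutants stood there between 0.371 and 1.47 and wildtypes between -0.274 and 0.237, with mutant replicate 4 again nearest the wildtypes. Ppargc1a, a coactivator that raises mitochondrial number and oxidation, had 5 rows. None passed (adjusted p 0.241 to 0.695), 1 was at an unadjusted p under 0.05, and their ranks ran from 46.7 to 80.3.

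**Figure D4:**
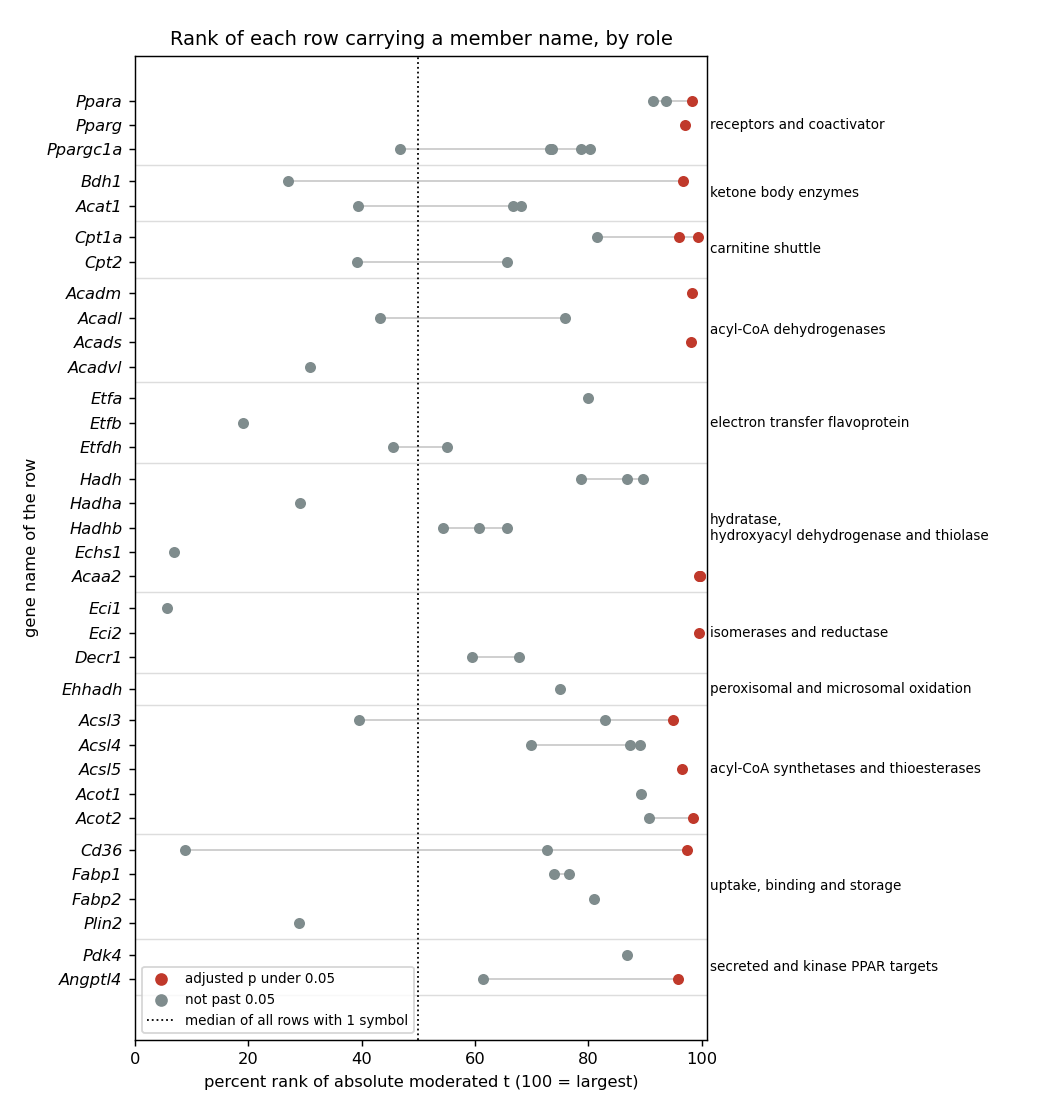
Percent rank of the absolute moderated t (horizontal axis, 100 is the strongest difference) of all 64 rows, by gene and role, with red points for rows at an adjusted p under 0.05, grey points for the rest and the middle of all rows with 1 symbol as the dotted line. The 3 rows of Acaa2 fall together at 99.6 to 99.8, and the rows of Cd36 spread from 8.71 to 97.5.

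In the carnitine shuttle, 2 of the 3 rows of the entry enzyme passed and neither row of the inner enzyme did, a difference that was not tested. Cpt1a, the outer membrane transferase that sets the rate of fatty acid entry, is the name of those 3 rows. In the first, mutants stood at 1.06, 1.1, 0.789, 1.07 and 0.977 and wildtypes at 0.269, -0.456, 0.0655 and 0.121. The mutants were closely grouped there and wildtype replicate 2 stood farthest from them. That row ranked 99.4 (absolute t 6.79, limma adjusted p 0.0132) and the second ranked 96.1 (adjusted p 0.0395), while the third ranked 81.6 and did not pass (adjusted p 0.219). The second row passed in 1 of the 9 fits that left out an array. Cpt2, which rebuilds the acyl-CoA inside the mitochondrion, had 2 rows at 65.6 and 39.2, neither past the test (adjusted p 0.465 and 0.769).

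Of the 4 acyl-CoA dehydrogenases, which take the first step of the cycle on chains of different length, those for medium and short chains passed. In the row of Acadm (medium chains) the mutants stood at 1.02, 1.26, 1.30, 0.493 and 0.930 and the wildtypes at 0.139, 0.296, -0.207 and -0.228. In the row of Acads (short chains, butyrate among them) the mutants stood at 0.517, 0.988, 1.28, 1.22 and 1.00 and the wildtypes at 0.290, 0.133, -0.305 and -0.118. The mutant nearest the wildtypes was replicate 4 in Acadm and replicate 1 in Acads. Both rows ranked 98.2, with limma adjusted p of 0.0228 and 0.0230, and each passed in 5 of the 9 fits that left out an array. Acadl (long chains) had rows at 76.0 and 43.3, and Acadvl (very long chains) had 1 row at 30.9, none past the test (adjusted p 0.308 to 0.832).

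The electron transfer flavoprotein takes the electrons of these dehydrogenases to the respiratory chain. None of the 4 rows of its subunits Etfa and Etfb and of its oxidoreductase Etfdh passed (adjusted p 0.245 to 0.909). Their percent ranks were 80.0 for Etfa, 19.0 for Etfb, and 55.1 and 45.4 for Etfdh. Etfa alone was at an unadjusted p under 0.05.

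Among the enzymes of hydration, the next dehydrogenation and thiolysis, the calls fell on the thiolase. Acaa2, which cuts acetyl-CoA from the chain, had 3 rows and all passed, with percent ranks of 99.8, 99.7 and 99.6 and limma adjusted p of 0.00924, 0.00990 and 0.0117. In the first row the mutants stood at 0.802, 0.809, 1.41, 1.1 and 0.878 and the wildtypes at -0.0456, 0.0545, -0.133 and 0.124. The space between the groups was wider in this row than in any other that passed, with the wildtypes tightly grouped and mutant replicate 3 farthest out. Its absolute t of 8.09 was the largest of the 64 rows. Without the Acaa2 rows, 13 of 61 rows of the group passed (21.3%) and the median percent rank was 76.0.

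Hadh, the hydroxyacyl dehydrogenase for shorter chains, had 3 rows at 89.7, 86.8 and 78.6. None passed (adjusted p 0.104 to 0.266), and in the first of them the groups did not overlap. Hadha and Hadhb, the subunits of the trifunctional protein that handles long chains, ranked 29.1 for 1 row and 54.4 to 65.6 for 3 rows. Echs1, the short-chain hydratase, ranked 6.88. Its adjusted p of 0.971 placed it among the rows of the table that differed least.

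The auxiliary enzymes let unsaturated fatty acids enter the cycle. Eci2, an enoyl-CoA isomerase of peroxisomes and mitochondria, had 1 row, where the mutants stood at 0.756, 0.971, 1.21, 0.740 and 1.33 and the wildtypes at -0.00442, -0.0727, -0.0189 and 0.0960. The wildtypes were closely grouped, between -0.0727 and 0.0960. The row ranked 99.6 (absolute t 7.25, limma adjusted p 0.0122). Its mitochondrial relative Eci1 was at the other end of the range, with a rank of 5.53 (adjusted p 0.977), and the 2 rows of Decr1, the dienoyl-CoA reductase, ranked 67.8 and 59.4 without passing. The peroxisomal bifunctional enzyme Ehhadh, a common PPAR target, ranked 75.1 (adjusted p 0.321).

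Ketone body enzymes were represented by Bdh1 and Acat1. Bdh1, which interconverts acetoacetate and 3-hydroxybutyrate, had a row at rank 96.8 (adjusted p 0.0347), with mutants from 0.647 to 1.45 and wildtypes from -0.277 to 0.455. Among the wildtypes, replicate 1 stood nearest the mutants and the others below 0. The other row of Bdh1 ranked 27.0 (adjusted p 0.857), so this name rests on 1 of 2 rows, and the call was kept in 2 of the 9 fits that left out an array. Acat1, the acetoacetyl-CoA thiolase of mitochondria, had 3 rows at 68.2, 66.7 and 39.3, none past the test. With array number as a covariate the second of them ranked 96.5.

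The enzymes that make and cleave acyl-CoA had the highest median percent rank of any role with more than 3 rows, at 89.3 over 10 rows, of which 8 were at an unadjusted p under 0.05 and 3 passed. Acsl5, a synthetase abundant in intestinal epithelium, had 1 row at 96.5 (adjusted p 0.0362), with the call kept in 2 of the 9 fits that left out an array. Its mutants stood between 0.449 and 1.56 and its wildtypes between -0.237 and 0.330. Acsl3, a synthetase of lipid droplets, had rows at 94.9 (adjusted p 0.0496), 82.9 and 39.6, and the call of the first was kept in 1 of the 9 fits that left out an array. Acsl4, which prefers arachidonic acid, had rows at 89.2, 87.3 and 69.9, none past the test (adjusted p 0.110 to 0.400).

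Acot2, a mitochondrial thioesterase that frees fatty acids from CoA, had rows at 98.4 and 90.7. In the first the mutants stood at 1.02, 0.644, 1.38, 1.08 and 0.876 and the wildtypes at -0.00116, 0.371, 0.0105 and -0.381. It passed (absolute t 5.62, limma adjusted p 0.0216), also in 7 of the 9 fits that left out an array. The second did not pass (adjusted p 0.0935), although its groups did not overlap. Acot1, the cytosolic counterpart, ranked 89.4 (adjusted p 0.107). The Acot1 and Acot2 sequences are close to each other, so their rows can detect each other's transcripts and the split between these names is uncertain.

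Of the 7 rows of uptake, binding and storage genes, 1 passed (14.3%, against 5.19% of all rows with 1 symbol). Cd36, a fatty acid transporter at the cell surface, had a row at 97.5 (adjusted p 0.0280) with mutants from 0.579 to 1.28 and wildtypes from -0.408 to 0.327, and further rows at 72.6 and 8.71. The call was kept in 3 of the 9 fits that left out an array. The 3 rows had the widest spread in rank within a name in the group. Fabp1 and Fabp2, the fatty acid binding proteins of liver and intestine, ranked 76.6 and 74.0 for the 2 rows of Fabp1 and 81.0 for Fabp2, and Plin2, a coat protein of lipid droplets, ranked 29.0. Their adjusted p ran from 0.230 to 0.844. Fabp1 and Plin2, whose windows above hold DR1-like letters, thus had no row past the test.

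Angptl4 and Pdk4 are PPAR targets that act outside the cycle. Angptl4, a secreted inhibitor of lipoprotein lipase, had a row at 95.9 (adjusted p 0.0404), in which the mutants stood between 0.733 and 1.18 and the wildtypes split into 0.484 and 0.421 for replicates 1 and 2 and -0.445 and -0.460 for replicates 3 and 4. The call was kept in 2 of the 9 fits that left out an array, and the other row ranked 61.4. Pdk4, the kinase that shuts glucose carbon out of the citric acid cycle, ranked 86.9 and did not pass (adjusted p 0.144). With array number as a covariate Pdk4 ranked 49.9.

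The call of a name often rested on 1 of its rows. The 13 genes with a call had 10 further rows, of which 5 were at an unadjusted p under 0.05, with a median percent rank of 77.1. For Bdh1, Acsl3 and Cd36, 1 row passed and another ranked below 50. Among the 18 names with more than 1 row, all rows were at an unadjusted p under 0.05 for Ppara, Cpt1a, Acaa2 and Acot2. The 21 genes without a call had 38 rows with a median percent rank of 68.0, of which 9 were at an unadjusted p under 0.05. Over all rows with 1 symbol 21.1% were at that limit by limma, so the 9 of 38 are near the general share. How often all rows of a name reach that limit over all gene names was not counted.

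Other genes of the same pathways, from a list of 111 that leaves out the 36, had 15 of 183 rows for 100 genes past the test (8.20%, against 5.19% of all rows with 1 symbol) and a median percent rank of 56.3. Mitochondrial oxidation outside the core cycle had 1 of 31 rows past the test, the one named Acad9 (adjusted p 0.0397), and acyl-CoA handling had 2 of 33, named Acot7 (0.0122) and Acot4 (0.0218). Peroxisomal oxidation had 4 of 33, led by the thiolase Acaa1a (0.0148), the isomerase Ech1 (0.0225) and the carnitine octanoyltransferase Crot (0.0387). Further ketone body enzymes had 2 of 9, both named Aacs, the acetoacetyl-CoA synthetase of the cytosol (0.00865 for the stronger). Another row of Aacs ranked 9.43 (adjusted p 0.960). Lipolysis, storage and other PPAR targets had 5 of 53, led by Fabp4 (0.0113). The list of receptors with their partners had 1 of 24, named Tfam (0.0405), which is not itself a nuclear receptor. The heterodimer partner Rxra (0.0521) and Ppard (0.0563) did not pass. Several of the names given here also had rows that did not pass. These ranked 29.5 and 3.83 for Acad9, 45.7 for Acot4, 37.3 for Crot, and 48.5 and 44.4 for Fabp4. Both this list and the 36 genes were chosen with earlier results of these data known, and the difference between them was not tested.

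Alongside these, rows of the respiratory chain and ATP synthase, which share the mitochondrion, passed in 1 of 116 (0.862%) with a median percent rank of 44.0. Rows of sterol and fatty acid synthesis passed in 23 of 71 (32.4%) with a median of 90.1. No test of the difference between these lists and the fatty acid oxidation group was made.

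**Figure D5:**
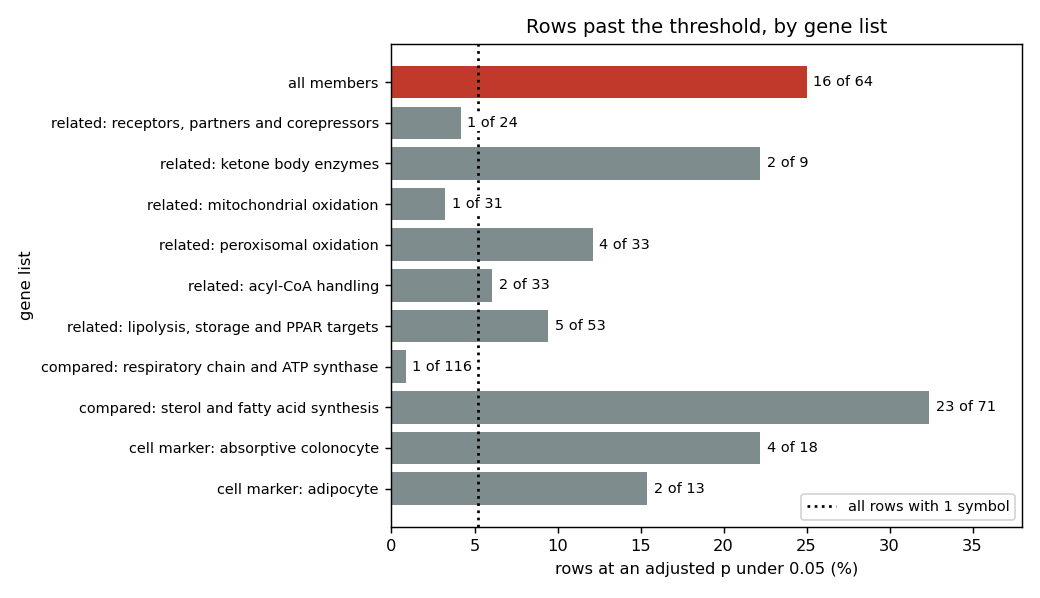
Share of rows at an adjusted p under 0.05 (horizontal axis, %) in each gene list, with the number of rows beside each bar and the 5.19% of all rows with 1 symbol as the dotted line. The fatty acid oxidation group (red, 25.0%) lies between sterol and fatty acid synthesis (32.4%) and the respiratory chain (0.862%).

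Since levels are not tied to names, the colon label could not be checked against the level of colon markers, and other cell types could be examined only by strength. Of 12 absorptive colonocyte markers, which mark cells that oxidise fatty acids, 4 of 18 rows passed (22.2%, against 5.19% of all rows with 1 symbol). The median percent rank over the 18 rows was 88.9. Rows that passed carried only 3 of the 12 names, Aqp8 (adjusted p 0.0155), Slc26a3 (0.0207 for the strongest row) and Slc9a3 (0.0225). No row of the other names passed, and their ranks ran from 4.61 to 94.1. A further row of Slc9a3 ranked 79.0 and did not pass (adjusted p 0.260). Adipocyte markers passed in 2 of 13 rows, both named Fabp4, which is also on the PPAR target list above, and the fat hormone Adipoq did not pass (0.587), with a median of 44.4 over the list. Smooth muscle passed in 0 of 19 rows (5 at an unadjusted p under 0.05 by limma), macrophage in 0 of 15 (1), skeletal and cardiac muscle in 0 of 15 (0), and hepatocyte and pancreas in 0 of 10 (3). Over all rows with 1 symbol, 5.19% passed and 21.1% were at an unadjusted p under 0.05 by limma. In lists this short, 0 rows passing is near the first share, and 5 of 19 and 3 of 10 are not far from the second. Whether a shift in colonocytes has a part in the fatty acid oxidation calls was not tested.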

How the data were processed

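Per the submitters' processing notes, the authors made the deposited values with Affymetrix Expression Console 1.1. They are probe set intensities on a linear scale from 5.21 to 23117, with array medians between 53.8 and 54.7, so no further normalization was applied. The number of arrays limits the precision, with the summary algorithm, background correction and filters not given in the sources used here. Labelling started from 100 ng of RNA, per the labels' protocols. Of 45101 rows, 64 controls were left out, and of the rest 34945 had 1 gene symbol, 932 several and 9160 none in the platform annotation. Genes are named only from rows with 1 symbol.

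All rows were tested at once as log2(intensity + 16), two-sided and with no covariate, by lmFit and eBayes of limma 3.58.1 (R 4.3.3), with 7 residual and 2.26 prior degrees of freedom. The procedure was checked on simulated data. Every row is used, rather than the brightest of each name, because rows of 1 name do not share a level. The group's members, its roles and the other gene lists were chosen with earlier results of these data known, among them that rows of a name share strength in part but not sign. All genes of the group are named, and of each other list up to 3 genes with the smallest p. Alternatives covered the normalization, pseudocount, weights, filter, threshold, choice of row, array number and each array left out, and 2 were chosen after seeing the data (without probe sets ending in _s_at or _x_at, and without Acaa2).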

Additional observations from a re-analysis of the deposited data

Results flagged for a closer look

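Outside the rows with a single symbol, 2 rows list a gene of the group among several symbols, and 1 of them passed the test at a limma adjusted p of 0.0411. It was kept out of all counts, because it cannot be given to 1 gene. In the 16 rows past the test, 32 sets of arrays (mutants or wildtypes of 1 row) were examined for an array far from its group, and none had a gap beyond Dixon's 95% value.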

How the results depend on the processing

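Among the settings that kept all arrays and the threshold, 15 to 18 of 64 rows of the group passed with trend and robust eBayes, array weights, quantile normalization, median centring and pseudocounts of 1 and 64, and 15 or 16 of the 16 reported rows kept their call in each. Counts moved most with array number as a covariate, where 0 rows of the group, 0 of its genes and 0 of the reported calls passed, 27 rows with 1 symbol did, and the median percent ranks were 71.6 over rows and 66.7 over genes. At a threshold of 0.01, 2 rows, 1 gene and 2 of the reported calls passed, beside 93 rows with 1 symbol. With the mean over the rows of a gene, 8 of 34 genes passed, beside 1108 of 18193, and with array weights 2872 rows with 1 symbol passed and the median over genes was 70.3. Among bright rows the median percent rank over rows was 74.1, without probe sets ending in _s_at or _x_at 74.5, and without Acaa2 76.0. Leaving out each array in turn gave 5 to 18 rows and 3 to 14 genes of the group, 345 to 2274 rows with 1 symbol, 5 to 15 of the 16 reported calls, and medians of 74.6 to 78.3 over rows and 68.9 to 79.1 over genes. Under every setting listed here but array number, the share of the group's rows past the test was above that of all rows with 1 symbol. Of the 48 rows not past the test, 6 passed in at least 1 setting. A median counts as moved when it shifts by more than the SD over the fits that leave out an array. The cause of these shifts was not tested. No paired analysis was possible because the labels give no replicate numbers shared by the groups.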
